A study of Mus musculus with 6 samples.

Results

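The 10 genes Egr1, Egr2, Egr3, Ier2, Ier3, Dusp1, Zfp36, Btg2, Klf2 and Klf4 are early-response genes that lie outside the AP-1 family. They were taken by symbol from the deposited table, which listed all 10 among 22134 genes. RNA of adipose tissue from wild-type (WT) mice was sequenced in 6 libraries. The creeping fat group held 3 libraries from mice whose colon had been injured by cautery repeatedly, and the control group held 3 libraries of mesenteric adipose tissue with no injury. Creeping fat is mesenteric fat that grows around damaged bowel. Strain, sex, age and the interval after injury are not stated in the labels. They also do not tie libraries to animals, and p-values therefore describe the spread between these libraries, which may be technical. Levels are FPKM, the fragments of a gene per kilobase of its length and scaled to the size of the library. All 10 genes had at least 1 FPKM in at least 3 libraries and were tested, among 12812 such genes. Egr2 reached 1 FPKM in only 4 libraries, 3 of them creeping fat, and Egr3 in 5.

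Early-response genes are transcribed within minutes of a stimulus and need no new protein for it. Kinases of the MAP kinase cascades act on factors already bound at their promoters, such as SRF with its ELK partners and CREB. The EGR proteins are zinc finger transcription factors that relay the signal to later genes, while DUSP1 removes the activating phosphates from MAP kinases, ZFP36 speeds the decay of cytokine mRNAs and BTG2 slows proliferation, so that the response ends itself. KLF2 and KLF4 are zinc finger factors better known for holding endothelial cells, lymphocytes and monocytes in a resting or differentiated state. In adipose tissue such genes are expressed by fat cells, stromal cells, endothelium and leukocytes alike, and their transcripts also rise when tissue is handled.

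The promoters of these genes are shown because the cascades act on factors bound at promoters. Whether any site in them is used in this tissue, or bears on the differences below, was not tested. RefSeq promoter windows of GRCm38.p6, from 250 bases before to 50 bases after a start site, were at hand for 7 of the 10 genes. Each stretch below reads 5′ to 3′ on the strand of its gene, with the matches named after it in capitals.
Egr2: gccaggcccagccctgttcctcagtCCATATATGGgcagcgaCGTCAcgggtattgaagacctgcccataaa
Zfp36: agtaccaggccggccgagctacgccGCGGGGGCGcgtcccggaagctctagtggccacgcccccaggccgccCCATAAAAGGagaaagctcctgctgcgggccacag
Dusp1: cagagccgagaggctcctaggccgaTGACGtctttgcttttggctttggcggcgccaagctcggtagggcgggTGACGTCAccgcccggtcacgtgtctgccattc
Btg2: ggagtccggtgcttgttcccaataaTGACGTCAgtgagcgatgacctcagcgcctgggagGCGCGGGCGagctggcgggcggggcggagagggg
Ier3: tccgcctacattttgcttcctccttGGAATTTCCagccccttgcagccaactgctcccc
Klf2: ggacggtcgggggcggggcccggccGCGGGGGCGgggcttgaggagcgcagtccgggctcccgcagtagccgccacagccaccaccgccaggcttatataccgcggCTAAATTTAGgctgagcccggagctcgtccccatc
The Egr2 stretch (chr10:67537772-67537843, plus strand) holds a CArG box, the letters bound by SRF, and the short form TGACG of the cyclic AMP response element (CRE), here on the other strand. The Zfp36 stretch (chr7:28379252-28379358, minus strand) holds an EGR site and a CArG box. The Dusp1 stretch (chr17:26508583-26508688, minus strand) holds a short and a full CRE, and the Btg2 stretch (chr1:134079253-134079346, minus strand) a full CRE and an EGR site. The Ier3 stretch (chr17:35821549-35821607, plus strand) holds an NF-kB site, and the Klf2 stretch (chr8:72318838-72318978, plus strand) an EGR site and a MEF2 site.

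These motifs were searched on both strands of all 32851 windows of the same length, and a match is a description of the letters, not of a bound factor. Egr2 has 5 windows, for as many start sites, and so had more chances of a match than the other 6 genes with 1 window each. The CArG box was in the windows of Egr2 (4 of its 5, not the first) and Zfp36 and in 1.63% of all windows. The CRE, spelled TGACGTCA, was in those of Dusp1 and Btg2 and in 1.79% of all, and its short form TGACG, which the full site contains, in 5 of the 7 genes and 20.8% of all. The EGR site GCGNGGGCG was in Zfp36, Btg2, Klf2 and Klf4 and in 5.55% of all windows. It can overlap the GC box GGGCGG, which all 7 genes and 35.7% of all windows held. The NF-kB letters GGNNTTTCC were in Ier3 and Btg2 and in 5.82% of all, and the MEF2 site was in Klf2 and in 0.557% of all windows. GC content was 54.0% for the Ier3 window and 74.3% for that of Klf4, against a median of 52.7%, and high GC by itself makes EGR sites and GC boxes more frequent. The ETS core CCGGAAG was in Zfp36, in lower case in its stretch above, and in 8.86% of all windows. No window of the 7 genes held the AP-1 letters TGANTCA or the TATA box TATAAA, which were in 7.81% and 13.6% of all windows.

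The study set creeping fat against healthy mesenteric fat. Egr1 and Ier3 were higher in creeping fat, by 2.28 and 2.13 times in mean FPKM. Values of Egr2, Ier2, Dusp1, Zfp36, Btg2 and Klf4 were also higher in the mean, by 1.36 to 1.94 times, and did not pass the test. Values of Klf2 and Egr3 were lower in the mean and did not pass. In limma's test 2 of the 10 genes were therefore called higher and 0 lower at a Benjamini-Hochberg adjusted p under 0.05, against 9.35% of all tested genes called higher and 6.81% called lower. At an unadjusted p under 0.05 there were 6 higher and 0 lower, and voom on recovered reads called the same counts as the test on FPKM, 2 and 0. The 2 groups did not overlap for 5 of the 10 genes (Egr1, Egr2, Ier3, Dusp1 and Zfp36), all with creeping fat higher. Among all tested genes 20.2% did not overlap with creeping fat higher and 16.9% with creeping fat lower. The median difference of the 10 genes was 0.53 on the log2 scale, against 0.02 for all tested genes. These shares and the median of all tested genes also stand beside the gene lists below.

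**Figure D1:**
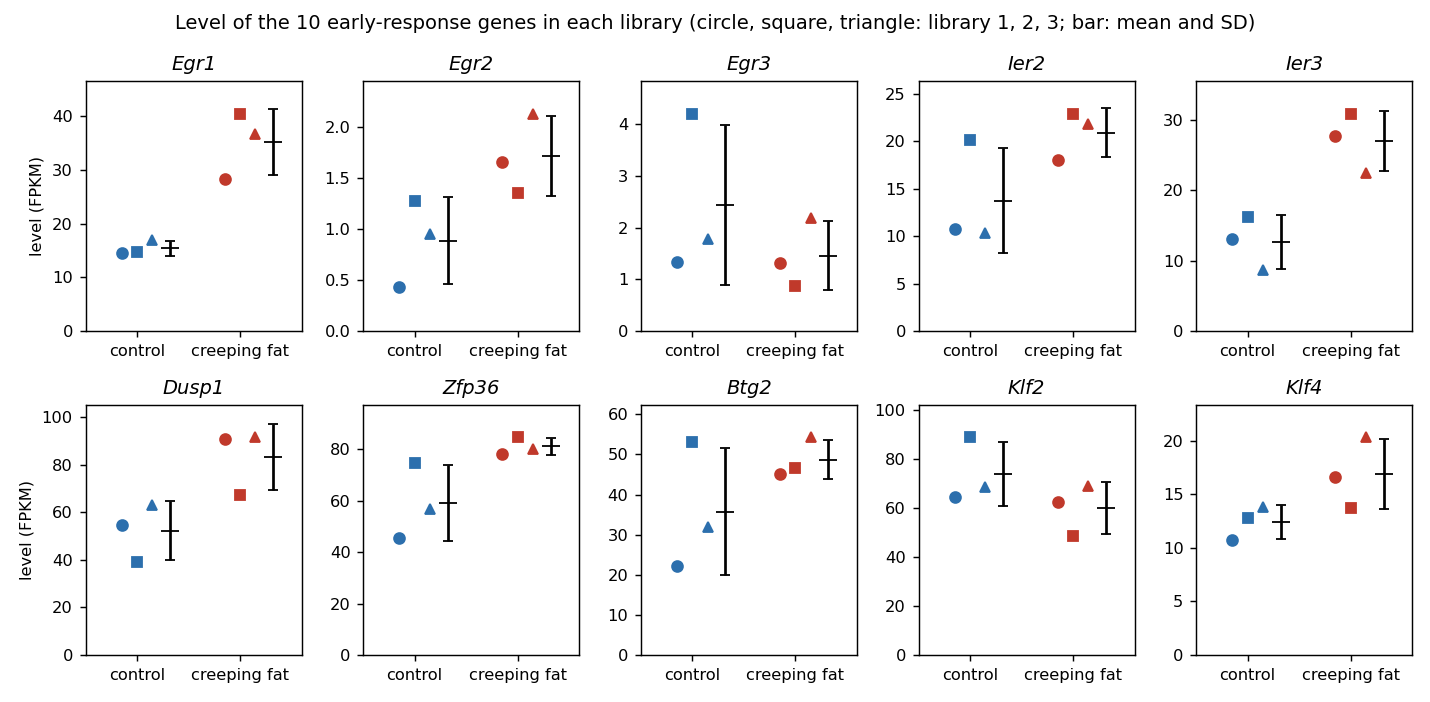
Level in FPKM (vertical axis, from 0) of each of the 10 genes in the 3 control and 3 creeping fat libraries, with the mean and SD (n = 3) as a bar beside each group. Egr1 and Ier3 stand apart between the groups, while control 2 (blue square) lies above the other controls for Egr2, Egr3, Ier2, Ier3, Zfp36, Btg2 and Klf2.

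Library totals ran from 31186019 to 43415698 reads, with overlapping depth in the groups, and the 10 genes had from 125 reads (Egr3 in creeping fat 2) to 6383 reads (Dusp1 in creeping fat 1), so counting error was small beside the spread between libraries. The tissue differed in make-up. Marker lists for fat cells summed to 667 to 1438 FPKM in creeping fat and 3315 to 9470 in controls (all 6 genes called lower), for fibroblasts to 9225 to 12655 and 753 to 955 (all 6 higher), and for macrophages to 450 to 584 and 130 to 291 (4 of 6 higher). Blood endothelial markers summed to 170 to 214 FPKM against 251 to 290 (2 of 7 lower), with no marker of these 4 lists at 0 in any library. Of the FPKM total, markers of seminal vesicle made up 5.30% to 9.42% in creeping fat against 0.0169% or less in controls, and markers of exocrine pancreas 1.82% or less against 5.45% to 14.0%. Control 2 stood apart from the other controls, with B cell markers (4 genes, none at 0) at 291 FPKM against 74.0 and 95.2, T cell markers (5 genes, none at 0) at 85.1 against 17.6 and 22.0, and fat cell markers at 3315 against 8991 and 9470. In bulk tissue fewer cells of a type and less RNA per cell cannot be told apart, and the part of cell make-up in the differences reported here was not tested. Of 9 heat shock genes 0 were called higher by limma on FPKM or by voom (0 also at an unadjusted p under 0.05). This list does not test how the tissue was handled. Limma called 2 of the 9 lower, Hspd1 at -0.96 ± 0.18 and Hspe1 at -0.54 ± 0.14 (log2 difference ± SE, adjusted p = 0.0154 and 0.038). Both calls were lost without creeping fat 1, creeping fat 3 or control 3, and that of Hspe1 also without creeping fat 2 or control 1 and with median-of-ratios scaling.

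Among the EGR factors only Egr1 passed. Egr1, the most studied early growth response factor (GENCODE M21, GRCm38, chr18:34859823-34864984, plus strand, protein coding), had 28.4, 40.5 and 36.6 FPKM in creeping fat 1, 2 and 3, and 14.6, 14.7 and 17.0 FPKM in control 1, 2 and 3. Every creeping fat library lay above every control, and the controls lay close together. The means were 35.2 ± 6.18 and 15.4 ± 1.36 FPKM (SD, n = 3), a difference of 1.13 ± 0.17 on the log2(FPKM + 1) scale (limma's moderated SE; adjusted p = 0.00758). Egr1 was called in all 17 other settings tried, with an adjusted p from 0.00402 to 0.0389.

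Egr2, which drives myelination in Schwann cells and is also induced in lymphocytes and macrophages (chr10:67535475-67542188, plus strand), stood at 1.67, 1.36 and 2.14 FPKM in creeping fat and 0.433, 1.28 and 0.951 in controls. The groups did not overlap, but creeping fat 2 and control 2 lay almost side by side, and the difference of 0.54 ± 0.22 did not pass (adjusted p = 0.153). At this low level its size depended on the scale, at 0.97 with a pseudocount of 0.1, 0.19 with a pseudocount of 5 and 1.09 by voom, none of which passed (adjusted p = 0.174, 0.149 and 0.109). It was 0.36 without control 1. Egr3, an early factor of activated lymphocytes and muscle spindles (chr14:70077203-70082614, plus strand), stood at 1.32, 0.866 and 2.18 FPKM in creeping fat and 1.33, 4.20 and 1.77 in controls. The groups overlapped widely, with the highest value in control 2 and the lowest in creeping fat 2, and the difference was -0.43 ± 0.34 (95% interval -1.25 to 0.39, adjusted p = 0.466). The value was -0.19 with a pseudocount of 5, -0.66 without control 1, -0.25 without creeping fat 2 and -0.08 without control 2, and it turned to 0.10 without both libraries numbered 2.

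The 3 EGR genes therefore differed in their proportions from library to library. The ratio of Egr2 to Egr3, in which the scale of the library cancels, was 1.26, 1.57 and 0.979 in creeping fat and 0.325, 0.305 and 0.537 in controls, so that the groups did not overlap. The ratio of Egr1 to Egr3 was 21.4, 46.8 and 16.8 in creeping fat and 10.95, 3.50 and 9.59 in controls, again without overlap. The ratio of Egr1 to Egr2 overlapped, at 17.0 to 29.7 in creeping fat and 11.5 to 33.7 in controls. These ratios are descriptions without a test. How many gene pairs of the table would be apart was not computed, for these or for the gene pairs below.

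EGR activity is restrained by the NAB corepressors, of which Nab2 is itself induced by EGR factors. Of the 2 tested genes among Egr4, Nab1 and Nab2, 1 was higher and 0 lower (voom also 1 and 0). Nab2 stood at 18.6, 19.6 and 25.4 FPKM in creeping fat and 6.98, 13.5 and 8.93 in controls, with no overlap and a difference of 1.07 ± 0.25 (adjusted p = 0.0285), and it did not pass with any 1 library but control 2 left out or with no filter on low values. The ratio of Egr1 to Nab2 overlapped between the groups, at 1.53, 2.06 and 1.44 in creeping fat and 2.09, 1.09 and 1.90 in controls. Of 8 textbook target genes of EGR1, 2 were higher and 0 lower (2 and 1 at an unadjusted p under 0.05, 2 and 0 by voom, 4 and 1 without control 2). They were the growth factor gene Pdgfa (0.58 ± 0.14, adjusted p = 0.0363), and the matrix gene Fn1 (1.92 ± 0.34, adjusted p = 0.0126). Pdgfa did not pass with quantile normalization, with median-of-ratios scaling, with no filter on low values or with any 1 library but control 2 left out, and Fn1 did not pass without creeping fat 1. With each of these 2 scalings the list had 1 gene called higher and 1 called lower. The list's median was 0.47.

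Ier3 was the other gene that passed. Ier3, a small stress-induced protein that modulates cell survival and ERK signalling (chr17:35821684-35822923, plus strand), stood at 27.8, 30.9 and 22.4 FPKM in creeping fat and 13.1, 16.2 and 8.71 in controls. All creeping fat libraries lay above all controls, and the difference was 1.06 ± 0.24 (27.0 ± 4.29 against 12.7 ± 3.78 FPKM, adjusted p = 0.0274). Ier3 did not pass with any 1 library but control 2 left out (0.84 to 1.19, adjusted p from 0.0598 to 0.105), and passed without control 2 (1.25, adjusted p = 0.00451).

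Ier2, a nuclear regulator encoded by a single exon (chr8:84661331-84662852, minus strand), stood at 18.0, 22.9 and 21.8 FPKM in creeping fat and 10.7, 20.1 and 10.4 in controls. The value of control 2 fell between those of creeping fat 1 and 3, far above the other controls. The difference of 0.63 ± 0.26 did not pass (adjusted p = 0.161), and without control 2 it was 0.92 (adjusted p = 0.00326). The ratio of Ier3 to Ier2 ran from 1.03 to 1.54 in creeping fat and from 0.806 to 1.22 in controls, so it overlapped.

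In deposited FPKM the 3 feedback genes and Klf2 had the highest means of the 10 genes in creeping fat. Dusp1, the nuclear phosphatase of p38, JNK and ERK (chr17:26505590-26562128, minus strand), stood at 90.9, 67.2 and 91.6 FPKM in creeping fat and 54.7, 39.0 and 63.3 in controls. The groups did not overlap, although creeping fat 2 and control 3 lay close, and the libraries numbered 2 were the lowest of their group in both. The difference of 0.67 ± 0.23 did not pass (adjusted p = 0.0928), and it passed once the libraries numbered 2 of both groups were left out (0.63, adjusted p = 0.02). Dusp1 was the only one of the 10 genes for which control 2 was the lowest control.

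Zfp36, which encodes tristetraprolin (chr7:28376784-28380253, minus strand), stood at 78.4, 84.7 and 80.3 FPKM in creeping fat and 45.4, 74.7 and 56.9 in controls. The creeping fat libraries lay close together (81.1 ± 3.22 FPKM) and the controls were spread widely (59.0 ± 14.7 FPKM). The groups did not overlap, yet the difference of 0.48 ± 0.20 did not pass (adjusted p = 0.159; 0.66 and 0.0117 without control 2, 0.31 and 0.329 without control 1). Btg2, a partner of the CCR4-NOT deadenylase complex (chr1:134075170-134079120, minus strand), stood at 45.1, 46.7 and 54.3 FPKM in creeping fat and 22.1, 53.2 and 31.9 in controls. Here control 2 lay above 2 of the 3 creeping fat libraries, the difference of 0.52 ± 0.30 did not pass (adjusted p = 0.308), and it was 0.85 (adjusted p = 0.012) without control 2 and 0.23 (adjusted p = 0.594) without control 1. Both the Dusp1 and the Zfp36 locus overlap a gene on the other strand in GENCODE M21 (Ergic1 and Gm44710, among others). The Dusp1 locus, which spans 56539 bases there, also overlaps AC122252.4 and AC122252.1 on its own strand. Because the use of strand in counting was not given, reads of partners on the other strand cannot be told apart. Strand could not separate those on the same strand. Whether these overlaps reach the bases counted for either gene was not examined.

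The relatives of these feedback genes moved in different directions. Of 8 tested MAP kinase phosphatase genes besides Dusp1, 0 were higher and 1 lower (2 and 2 at an unadjusted p under 0.05, 0 and 1 by voom, 3 and 2 without control 2). The 1 was Dusp10, a phosphatase of p38 and JNK, which fell to 1.19, 1.41 and 1.54 FPKM from 2.93, 4.78 and 4.80 (-1.10 ± 0.20, adjusted p = 0.0128) and was lost without creeping fat 1 and without control 3. Zfp36l1, a relative of Zfp36 with the same mode of action, rose by 0.93 ± 0.21 (152, 140 and 152 FPKM against 67.9, 103 and 65.2, adjusted p = 0.0261), was lost after quantile normalization and with any 1 library but control 2 left out, and was 1 of 2 tested relatives (both passed without control 2). Of 7 tested cytokine and related mRNAs that ZFP36 binds, 2 were higher and 0 lower (the same by voom and at an unadjusted p under 0.05). They were Il1b, at 19.4 ± 10.9 against 1.07 ± 0.385 FPKM (3.18 ± 0.38, adjusted p = 0.00373), and Ptgs2, the inducible cyclooxygenase (1.40 ± 0.23, adjusted p = 0.00945). Of the 4 other BTG and TOB genes Btg3 alone rose, by 0.83 ± 0.16 (adjusted p = 0.0154), and the list's median was -0.28. Btg3 did not pass without creeping fat 1, 2 or 3.

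Klf2 and Klf4 differed from each other in direction, and neither passed. Klf2, the flow-induced factor of endothelium and of resting lymphocytes (chr8:72319033-72321656, plus strand), stood at 62.3, 48.3 and 69.1 FPKM in creeping fat and 64.3, 88.8 and 68.5 in controls. The groups overlapped, and the difference was -0.30 ± 0.20 (95% interval -0.77 to 0.17, adjusted p = 0.373). Creeping fat 2 was the lowest creeping fat library and control 2 the highest control, so leaving out either must shrink this difference. It was -0.15 without creeping fat 2, -0.16 without control 2 and -0.02 without both. Klf4, a factor of epithelial, endothelial and monocyte differentiation (chr4:55527143-55532466, minus strand), stood at 16.6, 13.76 and 20.3 FPKM in creeping fat and 10.7, 12.8 and 13.78 in controls. The groups touched at creeping fat 2 and control 3, and the difference of 0.40 ± 0.18 did not pass (adjusted p = 0.189), nor in any other setting (0.27 without creeping fat 3).

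Ratios within a library were also taken for the 2 KLF genes, neither of which passed the test. The ratio of Klf4 to Klf2 was 0.266, 0.285 and 0.294 in creeping fat and 0.166, 0.144 and 0.201 in controls, with the groups apart. The ratio of Egr1 to Klf2 was 0.456, 0.837 and 0.530 in creeping fat and 0.227, 0.165 and 0.248 in controls, also apart. Set against the summed endothelial markers, Klf2 overlapped between the groups, at 0.291, 0.270 and 0.406 in creeping fat and 0.255, 0.306 and 0.273 in controls. Egr3 overlapped on that scale too, and the other 8 genes were higher in all 3 creeping fat libraries. The endothelial sum was itself lower in creeping fat (170 to 214 against 251 to 290 FPKM), which raises every such ratio. Against the summed macrophage markers Egr3, Zfp36, Btg2, Klf2 and Klf4 were lower in all 3 creeping fat libraries (Klf2 at 0.107 to 0.118 against 0.305 to 0.493), the other 5 genes overlapped and none was higher. On the scale of summed fibroblast markers all 10 genes were lower in all 3 creeping fat libraries. Those markers had a median difference of 3.82 and the macrophage markers 1.44, both above that of any of the 10 genes. How many of all genes would be apart on these 3 scales, and how many gene pairs of the table, was not computed.

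**Figure D2:**
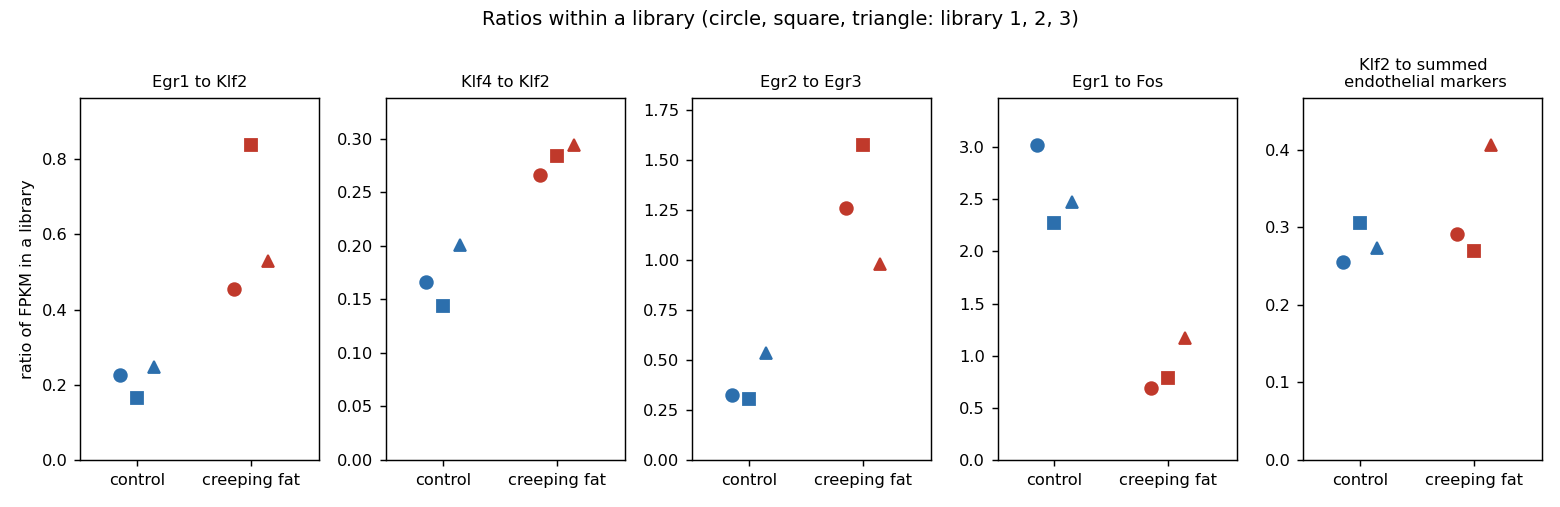
Ratios of FPKM within a library (vertical axis, no unit, from 0) for 4 gene pairs and for Klf2 against the sum of 7 endothelial markers, in 3 control and 3 creeping fat libraries. The groups are apart for the 4 pairs, as for Klf4 to Klf2 with 0.266 to 0.294 in creeping fat and 0.144 to 0.201 in controls. They overlap for Klf2 against the endothelial markers. The share of all gene pairs that would be apart was not computed. Pairs that overlapped are not shown: Egr1 to Egr2, Ier3 to Ier2, Dusp1 to Zfp36 and Egr1 to Nab2.

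Genes around Klf2 and Klf4 were taken from lists. All 4 textbook targets of KLF2 had lower values in creeping fat, and 2 passed. The endothelial nitric oxide synthase gene Nos3 fell to 9.33, 7.41 and 6.95 FPKM from 26.1, 17.5 and 20.3 (-1.32 ± 0.19, adjusted p = 0.00657), and the sphingosine phosphate receptor gene S1pr1 fell by 0.84 on the log2 scale (SE 0.21, adjusted p = 0.0372). The call of S1pr1 was lost without creeping fat 1, 2 or 3, without control 3 and with no filter on low values, and without control 2 the list had 3 genes called lower. All 7 blood endothelial markers had lower means too, with 2 called lower, no overlap for 5 and a median of -0.49. Among all tested genes 16.9% did not overlap with creeping fat lower. The part of endothelium in the falls of Nos3 and S1pr1 was not tested. The ratio of Klf2 to Nos3 was 6.67, 6.52 and 9.94 in creeping fat and 2.47, 5.08 and 3.38 in controls, without overlap. Of 10 other tested Krüppel-like factor genes, 0 were higher and 1 lower (2 and 1 at an unadjusted p under 0.05, 0 and 1 by voom, 2 and 1 without control 2, 1 and 1 without creeping fat 3). Klf15, a factor of fat cell metabolism, was the 1 that fell, to 3.04, 3.32 and 3.72 FPKM from 10.8, 8.85 and 10.7 (-1.35 ± 0.14, adjusted p = 0.00276), in libraries whose fat cell markers were lower too.

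Control 2 lay high for many genes of the table. It was the highest control for 57.8% of all tested genes and for 7 of the 10 (Egr2, Egr3, Ier2, Ier3, Zfp36, Btg2 and Klf2), and control 1 was the lowest for 56.3% and for 7 of the 10, so neither count is particular to these genes. Without control 2, 6 of the 10 genes were called higher (Egr1, Egr2, Ier2, Ier3, Zfp36 and Btg2), against 22.6% of all tested genes, and the median difference was 0.68 for the 10 genes and 0.13 for all. With creeping fat 2 left out as well, Dusp1 was called too, 7 of 10 in all, against 21.2% of all tested genes. Without any 1 of the other 5 libraries only Egr1 was called.

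**Figure D3:**
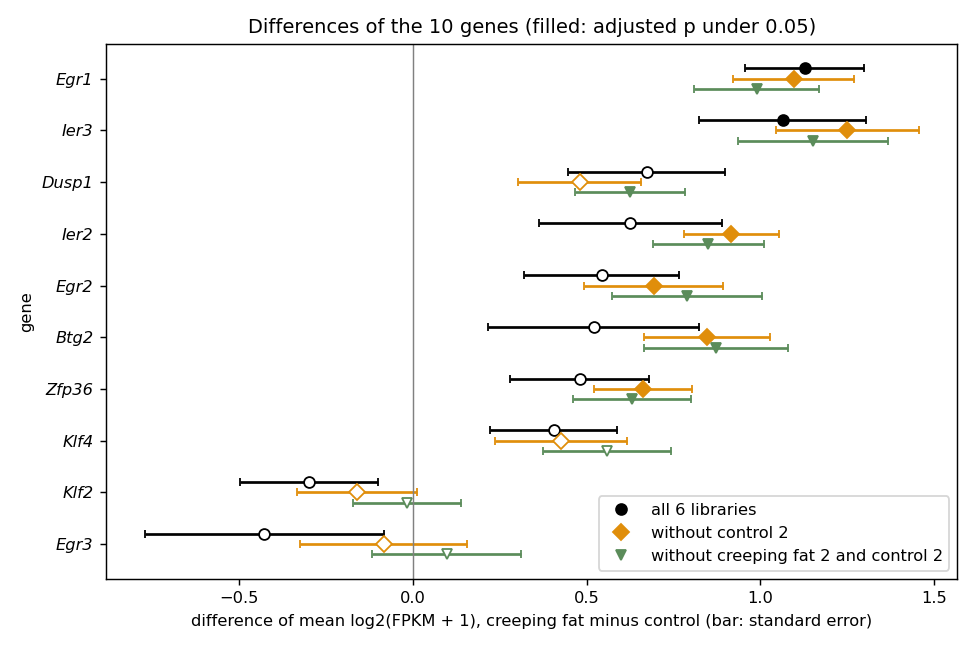
Creeping fat minus control as a difference of mean log2(FPKM + 1) (horizontal axis, log2 units), with limma's standard error, for the 10 genes with all 6 libraries, without control 2 and without creeping fat 2 and control 2. Filled marks have an adjusted p under 0.05: only Egr1 and Ier3 with all libraries, and 6 and 7 genes in the smaller sets.

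Egr3 and Klf2, the only genes of the 10 with lower means in creeping fat, ordered the libraries much as the B cell markers did. Egr3 ran from 4.20 FPKM in control 2 through 2.18 in creeping fat 3 and 1.77 in control 3 to 0.866 in creeping fat 2. Klf2 ran from 88.8 through 69.1 and 68.5 to 48.3 FPKM in the same 4 libraries. The 4 B cell markers summed to 291, 160, 95.2 and 37.0 FPKM there. Creeping fat 1 and control 1 lay between control 3 and creeping fat 2 in all 3 measures, with Egr3 at 1.32 and 1.33, Klf2 at 62.3 and 64.3 and the markers at 93.4 and 74.0 FPKM. The T cell markers did not follow this order: they were highest in control 2 (85.1) and creeping fat 3 (47.5), but creeping fat 1 (30.7) lay above control 3 (22.0) and control 1 (17.6) was lowest. The likeness to the B cell markers was noticed in the values, and the part of lymphocytes in it was not tested.

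The AP-1 factors, the transcription factors usually induced with the EGR genes, had larger differences. Of 7 tested genes on that list 6 were higher and 0 lower (7 and 0 at an unadjusted p under 0.05, 6 and 0 by voom), with a median of 1.50 on the log2 scale against 0.53 for the 10 genes. Fos stood at 41.2, 51.3 and 31.2 FPKM in creeping fat and 4.83, 6.46 and 6.87 in controls (2.57 ± 0.22, adjusted p = 0.00133), and Fosb reached a difference of 2.26 ± 0.31 (adjusted p = 0.0055). The ratio of Egr1 to Fos was accordingly lower in every creeping fat library, at 0.688, 0.790 and 1.17 against 3.02, 2.27 and 2.47 in controls. Of 28 other tested early-response genes 7 were higher and 0 lower, against 9.35% and 6.81% of all tested genes. Counts for these 28 were 12 and 1 at an unadjusted p under 0.05 and 7 and 0 by voom, with a median of 0.43. The largest rises among them were 2.52 ± 0.41 for Ccn1, which encodes a matricellular protein (adjusted p = 0.00945), and 1.55 ± 0.27 for Socs3, the inhibitor of cytokine receptor signalling (adjusted p = 0.0113). Without control 2 the count of this list was 15 higher and 1 lower, where 22.6% of all tested genes were called higher.

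Few upstream genes passed. Of 23 tested kinases and SRF, ELK and CREB factors, 6 did not overlap with creeping fat higher and 4 with it lower. Among all tested genes these shares were 20.2% and 16.9%. By limma 1 of the 23 was called higher and 0 lower, against 9.35% and 6.81% of all tested genes. Counts were 1 and 2 at an unadjusted p under 0.05, 1 and 0 by voom and 4 and 1 without control 2. The median was 0.04. The 1 called by limma with all libraries was Elk3, an ETS partner of SRF, at 26.4, 23.6 and 22.2 FPKM against 11.3, 17.3 and 12.6 (0.79 ± 0.18, adjusted p = 0.0309). It did not pass with any 1 library but control 2 left out. RNA levels carry no information on phosphorylation, through which these proteins act.

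**Figure D4:**
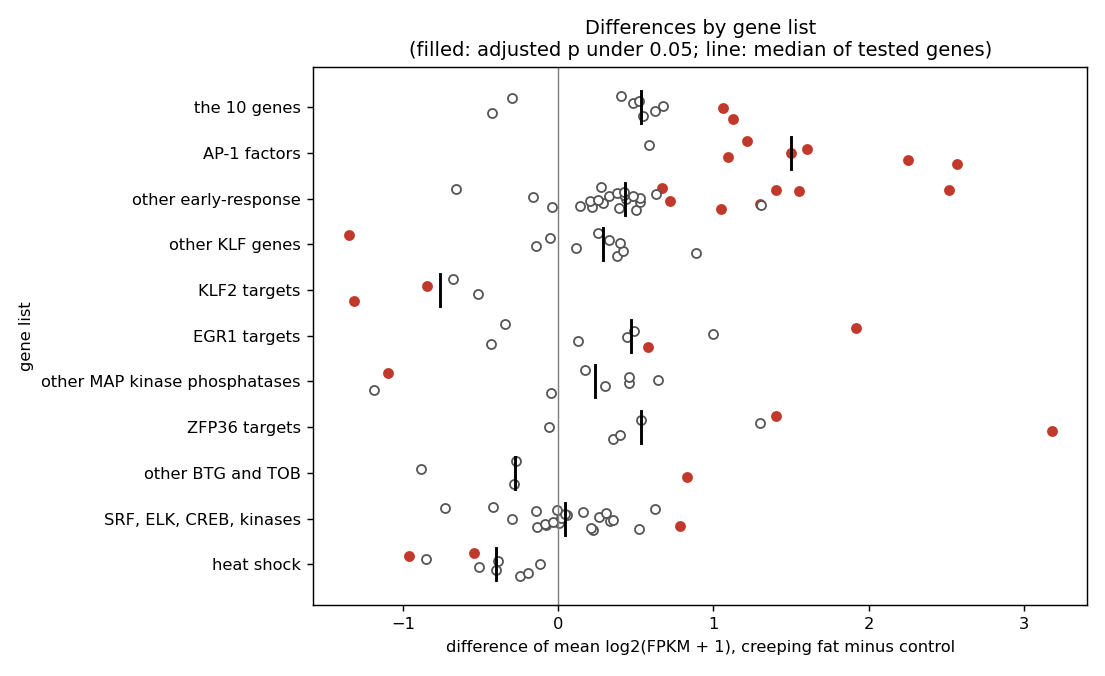
Log2(FPKM + 1) in creeping fat minus that in control, as a difference of means (horizontal axis), of each tested gene in 11 gene lists, with the list's median as a black line. Filled points have an adjusted p under 0.05: 2 of the 10 genes, 6 of 7 AP-1 factors and 1 of 23 upstream genes, with medians of 0.53, 1.50 and 0.04.

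In levels the 10 genes fell into high, middle and low tiers. In creeping fat the order of mean FPKM was Dusp1 (83.2), Zfp36 (81.1), Klf2 (59.9), Btg2 (48.7), Egr1 (35.2), Ier3 (27.0), Ier2 (20.9), Klf4 (16.9), Egr2 (1.72) and Egr3 (1.46). Neighbours in this order whose libraries did not overlap were Zfp36 and Klf2, Btg2 and Egr1, and Klf4 and Egr2. The ranges of the other neighbours overlapped, which does not show that their levels were equal within a library. In controls Klf2 came first (73.9) and Egr2 last (0.889), with Egr3 above it (2.43). The sum of the 10 genes was 370, 357 and 401 FPKM in creeping fat and 237, 325 and 273 in controls, or 0.101% to 0.114% and 0.0652% to 0.0951% of the FPKM total, without overlap.

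The gene lengths implied by the FPKM bear on these levels. For Ier2 the implied length of 1522 bases equalled the exonic length in GENCODE M21, and for Klf2 it was 1816 against 1847 bases. For Egr2 and Klf4 it was 9083 and 7553 bases against exonic lengths of 3398 and 3049 bases, and longer than the whole loci (6714 and 5324 bases). For Egr1, Dusp1 and Zfp36 it was shorter, at 3072, 1942 and 1765 bases against 4484, 3311 and 3470. With exonic lengths in place of the implied ones, the order of mean levels in creeping fat began with Klf2 (58.9), Btg2 (54.7), Dusp1 (48.8), Klf4 (41.8) and Zfp36 (41.3), and Egr2 stood at 4.60, so the order above depends on the length used. If fractions of reads were counted, the recovered reads and implied lengths would themselves be wrong, which was not tested. The length also bears on a difference on the log2(FPKM + 1) scale where a gene lies near 1 FPKM, as Egr2 does.

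The genes nearest in pattern were found over the 6 libraries by the root mean square difference of log2(FPKM + 1) centred on each gene's mean. Nearest to Egr1 were Tpbg (0.0618), Adgrb2 (0.0862) and Plat (0.0903), to Ier3 were Aldh1b1 (0.117), Stard10 (0.119) and D630039A03Rik (0.128), and to Dusp1 were Fth1 (0.0641), Abca1 (0.0874) and Rin2 (0.0986). Zfp36 was nearest to Actb (0.0343), Nfat5 (0.0374) and Sntg1 (0.0476), Btg2 to Nfxl1 (0.0549), Plagl2 (0.0608) and Il18 (0.0665), and Ier2 to Chaf1b (0.0481), Myc (0.0587) and Arfgap1 (0.0729). Myc, itself an early-response gene, stood at 10.6, 13.8 and 13.3 FPKM in creeping fat and 6.65, 12.7 and 6.86 in controls, with control 2 high as in Ier2. Egr2 was nearest to Spcs3 (0.0671), Tmem106a (0.0735) and Acap3 (0.0746), Egr3 to 4933440N22Rik (0.0747), 1700030K09Rik (0.0809) and Chst15 (0.0982), Klf2 to Gtf2h2 (0.0299), Fam124a (0.0626) and Phospho2 (0.0639), and Klf4 to Fam174a (0.0432), Ift27 (0.0745) and Rtl6 (0.0811). None of the 10 genes was among the 3 nearest to another. The closest pairs of them were Egr2 with Klf4 and Egr2 with Zfp36 (0.152 each). Yet Klf4 and Zfp36 ranked only 243 and 245 among the genes nearest to Egr2.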

How the data were processed

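The authors deposited 1 table of FPKM values for 6 libraries, fragments scaled by gene length and library total, with the build mm10 per the submitters' processing notes. Not given in the sources used here: aligner, counting program, annotation and strand setting. Per the labels' protocols, libraries were stranded total RNA after ribosomal RNA removal. Genes reaching 1 FPKM in 3 or more libraries were tested as log2(FPKM + 1) in limma 3.58.1 (R 4.3.3; lmFit, eBayes with trend, group as the only term, two-sided) and adjusted by Benjamini-Hochberg over all 12812 genes. The threshold for a call was an adjusted p of 0.05. Fold changes on this scale understate changes of low genes. Exact two-sided permutation of 3 against 3 libraries gives no p below 0.1, so none was run. Whole reads were recovered from ratios of FPKM within a gene (tolerance 0.01 reads) for all 18714 genes above 0, and served for depth, implied lengths and voom. For genes with reads in few libraries the smallest fitting counts were taken. The scripts were checked on data made with known answers. The members and lists were chosen with earlier results of these data known. From each other list every called gene was named where there were at most 4, otherwise the 2 largest rises and falls; marker lists are given by sums. Motifs and the B cell comparison were chosen after values were seen. Alternatives changed the pseudocount, filter, scaling, trend, unit, replicate block and libraries.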

Additional observations from a re-analysis of the deposited data

How the results depend on the processing

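Across 17 other settings Egr1 kept its call, at 0.97 to 1.27. With pseudocounts of 0.1 or 5, other filters, quantile or median-of-ratios scaling, rescaling without the seminal vesicle and pancreas lists, no trend or voom, the calls were Egr1 and Ier3, 2 higher and 0 lower. With 1 library left out, the genes of the 10 called higher numbered 1 to 6 and those lower 0, and all genes called numbered 576 to 2896 higher and 287 to 1857 lower. In those fits Egr1 ranged from 1.02 to 1.27, Egr2 from 0.36 to 0.69, Egr3 from -0.66 to -0.08, Ier2 from 0.47 to 0.92, Ier3 from 0.84 to 1.25, Dusp1 from 0.48 to 0.82, Zfp36 from 0.31 to 0.66, Btg2 from 0.23 to 0.85, Klf2 from -0.41 to -0.15 and Klf4 from 0.27 to 0.54. Without creeping fat 2 and control 2, 7 of the 10 genes and 2713 genes in all were called higher and 1731 lower; Egr2 was at 0.79, Ier2 at 0.85, Dusp1 at 0.63, Zfp36 at 0.63, Btg2 at 0.87, and Egr3 turned to 0.10. Why these sets differ was not tested. Deviations of same-numbered libraries had correlations of -0.18, -0.18 and -0.08, against -0.14 to 0.24 for unlike numbers. With 3 libraries per group these values cannot tell whether same-numbered libraries were paired. With a replicate block 2 of the 10 genes, 636 genes in all higher and 378 lower were called. The calls of Nab2, Pdgfa, S1pr1, Zfp36l1, Hspd1, Hspe1, Btg3 and Elk3 were then lost. The 18 other named genes kept their direction in all 304 values and their call in 251. A minimum mean of 5 FPKM left Egr2 and Egr3 untested.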
